A study of Mus musculus with 12 samples.

Results

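Cytokinesis, the separation of a dividing cell into daughter cells, was followed through 10 genes of the central spindle, the cleavage furrow and the final cut between daughters: Anln, Ect2, Racgap1, Kif23, Kif20a, Prc1, Cit, Aurkb, Birc5 and Cep55. They, and the lists of related genes used below, were chosen by function, but with earlier results of these data known. The Ensembl identifiers of the 10 genes were looked up among the 52336 genes of the deposited table. All 10 were found, and all 10 were among the 14996 genes whose mean over the 12 libraries was at least 10 normalised reads. RNA was sequenced after poly(A) selection from cardiomyocytes of wild-type mouse pups. The pups were injected daily from P0 to P1 (days after birth) with a high dose of N-acetylcysteine (NAC), an antioxidant that supplies cysteine, in HEPES-buffered saline, or with saline. At P2 they had either a myocardial infarction (MI), made by occluding the left anterior descending coronary artery, or a sham operation, and hearts were taken at P3. The 4 groups of 3 libraries were thus NAC with MI, saline with MI, NAC with sham surgery and saline with sham surgery, and the comparisons asked how NAC altered the transcriptome of injured and uninjured hearts. Each library came from pooled ventricles, digested with enzymes and enriched for cardiomyocytes with a selection kit. How many pups were pooled, and whether the libraries of a group came from separate litters, is not given in the sources used here, so p-values here rest on the variation among these libraries, part of which may be technical. The series design names whole ventricles and the sample labels name the left ventricle.

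In a dividing cell, PRC1 and kinesin motors bundle the overlapping microtubules left between the separating chromosomes into a central spindle. A complex of KIF23 and RACGAP1 (centralspindlin) on these bundles recruits ECT2, which switches on RhoA at the cell cortex, and the RhoA effectors anillin and citron kinase organise the contractile ring that pinches the cell. CEP55 then gathers the machinery that cuts the last bridge between the daughter cells. Mouse cardiomyocytes are known to leave the cell cycle in the first days after birth, when many of them copy their DNA and divide the nucleus without completing cytokinesis and so become binucleate.

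The libraries held 14353842 to 25118341 reads over genes, and the 10 genes had between 182 and 2048 reads in a library before scaling. Transcripts of the mitochondrial genome took 7.65 to 30.2% of reads and globin transcripts 1.07 to 7.05%. All 13 cardiomyocyte markers listed were detected in every library. Their summed level ran from 519700 to 701300 normalised reads in NAC MI, from 467400 to 660200 in saline MI, from 251400 to 656500 in NAC sham and from 374000 to 593600 in saline sham libraries. Markers of endothelial cells, fibroblasts, macrophages, mural cells, red blood cells and the epicardium were also present, so the values are those of a mixture. In such bulk samples, fewer cells of a type and less RNA per cell cannot be told apart.

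Some libraries stood apart before any gene of cytokinesis was considered. The mean log2 level of the 13 macrophage and monocyte markers was 5.73 in NAC MI 2, below the 8.94 and 9.22 of the other NAC MI libraries and the 8.85 to 9.55 of the saline MI libraries. NAC sham 2 had 9.80 on the same scale, above the 6.22 and 6.55 of the other NAC sham libraries and the 5.56 to 6.25 of the saline sham libraries, and it had the lowest cardiomyocyte marker level of all libraries, 13.3, against 13.8 to 14.9 in the 11 others. In macrophage markers NAC MI 2 thus lay within the range of the sham libraries other than NAC sham 2, and NAC sham 2 above all MI libraries. In other lists they lay nearer their labels: the mean log2 level of the epicardial markers was 10.8 in NAC MI 2, the highest of the 12, and 7.64 in NAC sham 2, within the sham libraries, and that of the neutrophil markers was 6.36 in NAC MI 2, between the other MI libraries (8.50 to 8.73) and the sham libraries (3.52 to 6.27), and 5.91 in NAC sham 2. Whether the labels of these 2 libraries were exchanged was not tested, and every NAC MI and NAC sham value rests on the labels as given. Titles carry run-like prefixes whose meaning is not stated: NAC MI 1, NAC MI 2 and saline MI 3 share 1 prefix, NAC MI 3, saline MI 1 and saline MI 2 another, and NAC sham 2, saline sham 1 and saline sham 2 a further one. Saline sham 3 has a prefix of its own, and NAC sham 1 and NAC sham 3 have none. No prefix holds both operations, so prefix and surgery cannot be told apart.

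Promoter sequence was available from RefSeq (GRCm38.p6) for 8 of the 10 genes, as the 250 bases before and 50 bases after each listed transcription start. The stretches below run from 100 bases before to 30 bases after the most downstream listed start and are shown because most of them carry the hexamer TTTGAA, the core of the cell cycle genes homology region (CHR), an element known from promoters of genes of the late cell cycle. Capitals mark TTTGAA read on either strand (TTCAAA where it lies on the other strand); in Anln a further match runs past the end of the stretch.
Anln, chr9:22389177-22389306, minus strand: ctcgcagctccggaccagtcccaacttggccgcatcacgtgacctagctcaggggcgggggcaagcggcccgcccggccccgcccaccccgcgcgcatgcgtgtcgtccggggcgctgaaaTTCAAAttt
Ect2, chr3:27153825-27153954, minus strand: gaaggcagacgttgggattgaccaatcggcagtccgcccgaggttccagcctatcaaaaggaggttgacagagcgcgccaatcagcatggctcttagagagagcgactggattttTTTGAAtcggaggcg
Racgap1, chr15:99651627-99651756, minus strand: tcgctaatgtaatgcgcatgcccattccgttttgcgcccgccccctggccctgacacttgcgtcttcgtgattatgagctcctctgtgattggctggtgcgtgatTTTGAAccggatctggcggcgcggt
Kif23, chr9:61946770-61946899, minus strand: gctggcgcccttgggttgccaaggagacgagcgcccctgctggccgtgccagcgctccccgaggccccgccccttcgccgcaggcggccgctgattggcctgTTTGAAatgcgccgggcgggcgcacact
Prc1, chr7:80294376-80294505, plus strand: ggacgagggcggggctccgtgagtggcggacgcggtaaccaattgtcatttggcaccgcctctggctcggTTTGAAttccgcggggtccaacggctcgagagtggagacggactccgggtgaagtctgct
Cep55, chr19:38054941-38055070, plus strand: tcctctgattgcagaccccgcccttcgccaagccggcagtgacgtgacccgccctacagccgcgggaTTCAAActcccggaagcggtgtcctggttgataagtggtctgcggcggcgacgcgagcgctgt
Cit, chr5:115845556-115845685, plus strand: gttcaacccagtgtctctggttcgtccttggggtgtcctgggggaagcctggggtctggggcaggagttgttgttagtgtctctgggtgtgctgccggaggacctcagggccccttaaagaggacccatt
Birc5, chr11:117849137-117849266, plus strand: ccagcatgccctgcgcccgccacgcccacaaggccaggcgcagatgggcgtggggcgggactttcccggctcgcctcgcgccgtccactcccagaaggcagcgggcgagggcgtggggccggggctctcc

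In the whole windows of 300 bases, 6 of the 8 genes (75%) held TTTGAA on either strand, namely Anln, Ect2, Racgap1, Kif23, Prc1 and Cep55, against 20.2% of 27025 genes with a promoter. In all 6 a match lay within the last 100 bases of a window, where 5.72% of all genes had one. Cit and Birc5 had no match in their windows. The same letters were found in 8 of 10 central spindle partners (80%) and 22 of 31 other genes of mitosis (71%), against 3 of 21 genes of S phase (14.3%), 1 of 12 contractile ring genes (8.33%) and 3 of 17 abscission genes (17.6%). CCAAT, searched likewise on both strands, was in 4 of the 8 windows against 41.1% of all genes, and GGGCGG in 8 of the 8 against 38.2%. In the lists of related genes, CCAAT ran from 29.4% (abscission) to 80.6% (other genes of mitosis), with 80% in central spindle partners. GGGCGG ran from 50% (central spindle partners) to 93.8% (regulators of late cell cycle genes), with 77.4% in other genes of mitosis. No match to TTTGAA overlapped a match to CCAAT. A match describes the letters and is not a bound site.

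Per kilobase of exon, the transcripts of Birc5 and Racgap1 were the most abundant, with a mean of 193 normalised reads per kilobase each over the 12 libraries. Birc5 was above Racgap1 in 3 of the 12 libraries, so these neighbours had no stable order. Aurkb followed at 150, Anln at 134, Kif20a at 113, Cep55 at 110, Prc1 at 101, Kif23 at 86.0, Ect2 at 73.6 and Cit at 27.1 normalised reads per kilobase. Racgap1 was above Aurkb in 11 libraries. Aurkb was above Anln, Anln above Kif20a, and Kif20a above Cep55 in 8 libraries each, and the order of these neighbours did not hold in the remaining libraries. Cep55 was above Prc1 in 10 libraries, Kif23 above Ect2 in 11, and Prc1 above Kif23 and Ect2 above Cit in all 12. The lengths are those of all annotated exons of a gene joined together, which lowers the value of genes with long alternative exons.

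**Figure D1:**
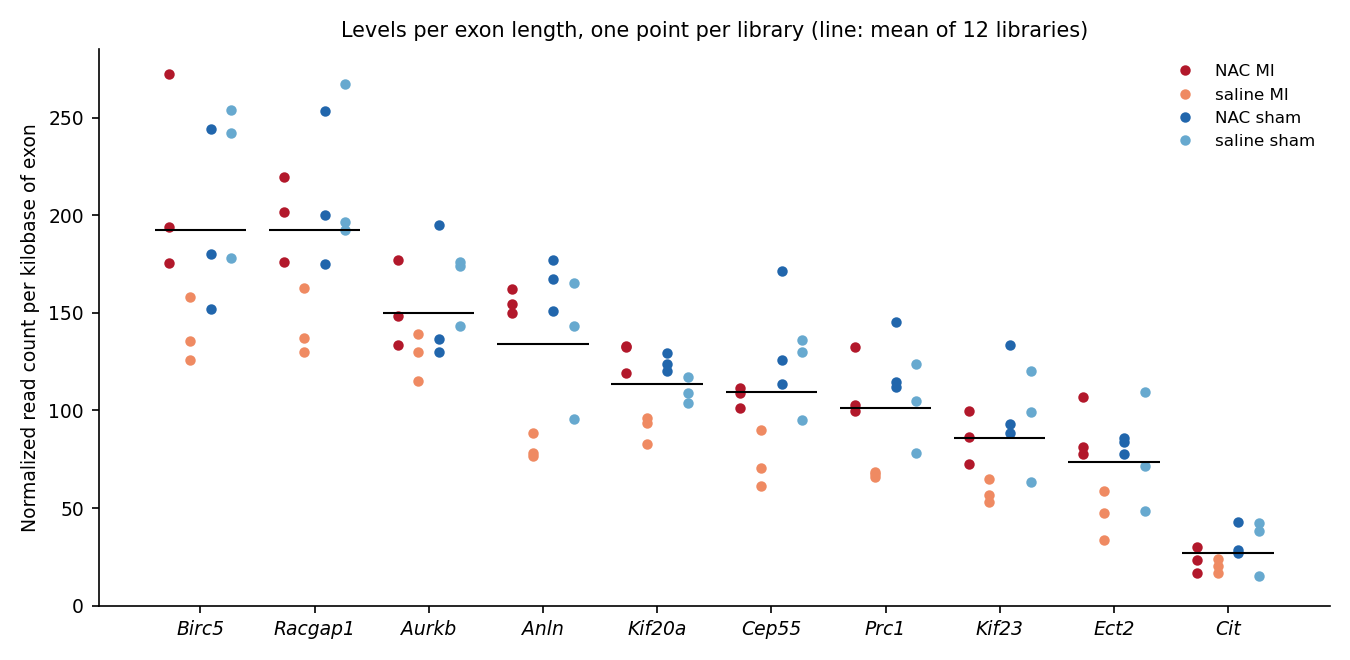
Normalised reads per kilobase of exon on a linear axis from 0 for each of the 10 genes, ordered by mean, with 1 point per library coloured by group (NAC MI, saline MI, NAC sham and saline sham) and a line at the mean of the 12 libraries. Birc5 and Racgap1 stand highest with means of 193 and Cit lowest with 27.1. In Anln, Racgap1, Kif20a, Prc1 and Cep55 the 3 saline MI points lie below all others.

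Within the central spindle, Prc1, which crosslinks antiparallel microtubules, had 819, 846 and 1091 normalised reads in NAC MI libraries 1, 2 and 3, and 543, 556 and 562 in saline MI. It had 941.5, 1195 and 921 in NAC sham and 862, 1020 and 645 in saline sham libraries. The mean was 918.9 ± 149.8 in NAC MI, against 553.9 ± 9.94 in saline MI (SD, n = 3 each), and the 3 saline MI values were the lowest of the 12. Kif23, the kinesin of centralspindlin, had 683, 573.5 and 789 normalised reads in NAC MI, 449.8, 419.7 and 514 in saline MI, 699, 1054 and 735 in NAC sham, and 786, 949.6 and 499.8 in saline sham libraries. All NAC MI libraries were above all saline MI libraries, and saline sham 3 lay within the range of the saline MI libraries.

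Racgap1, the GTPase-activating partner of Kif23, had 1427, 1247 and 1554 normalised reads in NAC MI, 970.3, 1152 and 918 in saline MI, 1416, 1794 and 1238 in NAC sham, and 1393, 1892 and 1364 in saline sham libraries. Its saline MI values were the lowest 3 of the 12. Kif20a, a kinesin that carries the chromosomal passenger complex to the midzone, had 518, 577 and 574 normalised reads in NAC MI, 359, 417.5 and 406 in saline MI, 520.5, 536 and 561 in NAC sham, and 450.1, 508 and 472 in saline sham libraries. Every NAC library was above every saline library, and the range over all 12 was narrow, with the highest value 1.61 times the lowest. Kif20a shares 1271 exon bases with Cdc23 on the opposite strand and Prc1 shares 911 with Rccd1. Whether the counting used strand is not given in the sources used here, so reads of these pairs cannot be told apart there.

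Aurkb, the kinase of the chromosomal passenger complex, had 437, 393 and 521 normalised reads in NAC MI, 339, 411 and 383 in saline MI, 382.5, 574.5 and 403 in NAC sham, and 512.5, 519 and 422.5 in saline sham libraries. The MI groups overlapped, and the saline MI libraries were below all saline sham libraries. Birc5 (survivin), a subunit of the same complex, had 597, 659 and 926 normalised reads in NAC MI, 462, 538 and 429 in saline MI, 613, 831 and 518 in NAC sham, and 605, 824 and 864 in saline sham libraries. Its saline MI values were below both NAC MI and saline sham, but NAC sham 3 lay among them.

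At the furrow, Anln (anillin, the scaffold that ties RhoA, actin, myosin and septins together) had 1402, 1469 and 1359 normalised reads in NAC MI, against 695, 708 and 803 in saline MI libraries. It had 1517, 1605 and 1370 in NAC sham and 1298, 1498 and 869 in saline sham libraries. The NAC MI libraries averaged 1410 ± 55.4 normalised reads, against 735.5 ± 58.8 in saline MI (SD, n = 3 each), and saline sham 3 was the nearest to the saline MI values of the other 9. Ect2, the exchange factor that activates RhoA, had 437, 576 and 419.5 normalised reads in NAC MI, 255, 180.5 and 317 in saline MI, 451.5, 462 and 419.6 in NAC sham, and 386, 589 and 262 in saline sham libraries. All NAC MI libraries were above all saline MI libraries, and saline sham 3 lay within the range of saline MI.

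Cit (citron kinase, a RhoA effector that keeps the midbody in shape) differed widely within groups, with an SD of 239 in saline sham libraries. It had 497, 273 and 387 normalised reads in NAC MI, 273, 395 and 332 in saline MI, 442, 706 and 465 in NAC sham, and 696, 625 and 251 in saline sham libraries. Saline sham 3 was the lowest of the 12 and NAC sham 2 the highest, followed by saline sham 1, so its groups overlapped in every comparison. Cep55, the midbody protein that recruits the abscission machinery, had 294, 316 and 324.5 normalised reads in NAC MI, 204, 178 and 261 in saline MI, 365, 498 and 330.5 in NAC sham, and 395, 377 and 276 in saline sham libraries. The saline MI libraries were the lowest 3, and the NAC MI libraries were above them and below all NAC sham libraries.

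**Figure D2:**
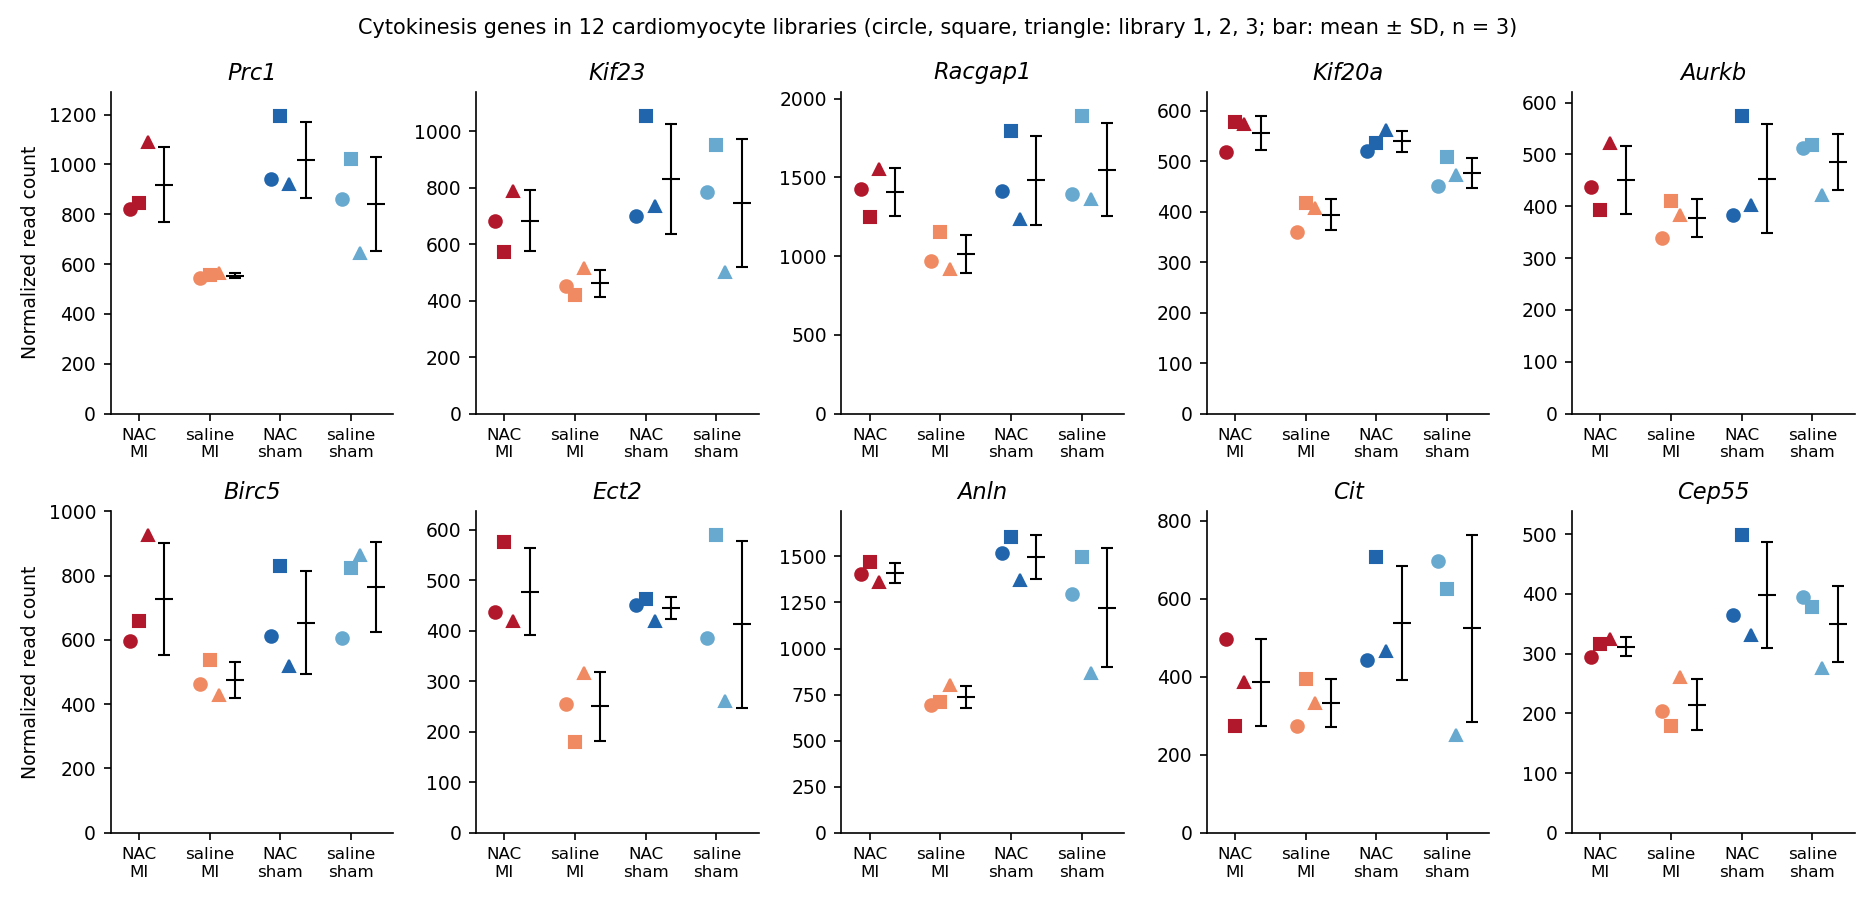
Normalised reads of the 10 genes on linear axes from 0, with 1 point per library (circle, square and triangle for libraries 1, 2 and 3) and a bar with whiskers for the mean ± SD of each group (n = 3), in the order NAC MI, saline MI, NAC sham and saline sham. In Anln, Racgap1, Kif20a, Prc1 and Cep55 the 3 saline MI points lie below the 9 others.

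Across the panel, the saline MI libraries held the lowest value of the 12 for 9 of the 10 genes, and saline sham 3 the lowest for Cit. NAC sham 2 held the highest value for 6 genes, saline sham 2 for 2, and NAC MI 2 and NAC MI 3 for 1 each. In 5 of the 10 genes (Anln, Racgap1, Kif20a, Prc1 and Cep55) all 3 saline MI libraries lay below the 9 others, a pattern that 1.12% of all tested genes had and that was looked for after the values were seen. The mean log2 level of the 10 genes was 9.30, 9.24 and 9.44 in the NAC MI libraries and 8.68, 8.76 and 8.84 in saline MI. It was 9.34, 9.70 and 9.28 in NAC sham and 9.39, 9.61 and 8.998 in saline sham libraries.

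NAC against saline after MI compared levels in injured hearts with and without the antioxidant, and no sham library enters the difference. All 10 genes were higher in NAC MI than in saline MI, with a median log2 difference of 0.55, against -0.02 over all genes tested, of which 48.1% were higher. Anln was 0.94 higher on the log2 scale (SE 0.193, 95% interval 0.52 to 1.36) and Ect2 0.95 higher (SE 0.285, 0.34 to 1.56). Prc1 was 0.72 higher, Birc5 0.59, Kif23 0.56, Cep55 0.55, Kif20a 0.50 and Racgap1 0.48, and these 8 genes had NAC MI libraries that did not overlap the saline MI libraries, as 8.84% of all genes did in that direction. Aurkb (0.25, interval -0.19 to 0.68) and Cit (0.18, -0.59 to 0.96) had overlapping groups. All log2 differences are on the log2(value + 1) scale.

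None of these differences passed the test. limma called 0 of the 10 genes and 0 of all 14996 genes (0%) at an adjusted p under 0.05, and the smallest adjusted p of a member was 0.529 for Anln, shared by the 8 non-overlapping genes. Without adjustment, 8 of the 10 had a p under 0.05, against 3.86% of all genes in that direction. edgeR called 0, DESeq2 called Anln (adjusted p = 0.0148) among 10 genes in all (0.053% of genes called higher), and limma with library quality weights called 6 (Anln, Ect2, Racgap1, Kif23, Kif20a and Prc1), where 2.75% of all genes were called higher. Within title prefixes, NAC MI 3 was above the mean of saline MI 1 and 2 for 10 of 10 genes (median 0.81, range 0.24 to 0.99). The mean of NAC MI 1 and 2 was likewise above saline MI 3 for 10 of 10 (median 0.48, 0.11 to 0.84). For the 8 non-overlapping genes this direction was fixed in advance. Each split has a single library on 1 side, and the genes are not replicates. Without NAC MI 2, the library with few macrophage transcripts, the median was 0.60 and 0 genes were called. With any 1 library of this comparison left out, the median ranged from 0.46 to 0.60.

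**Figure D3:**
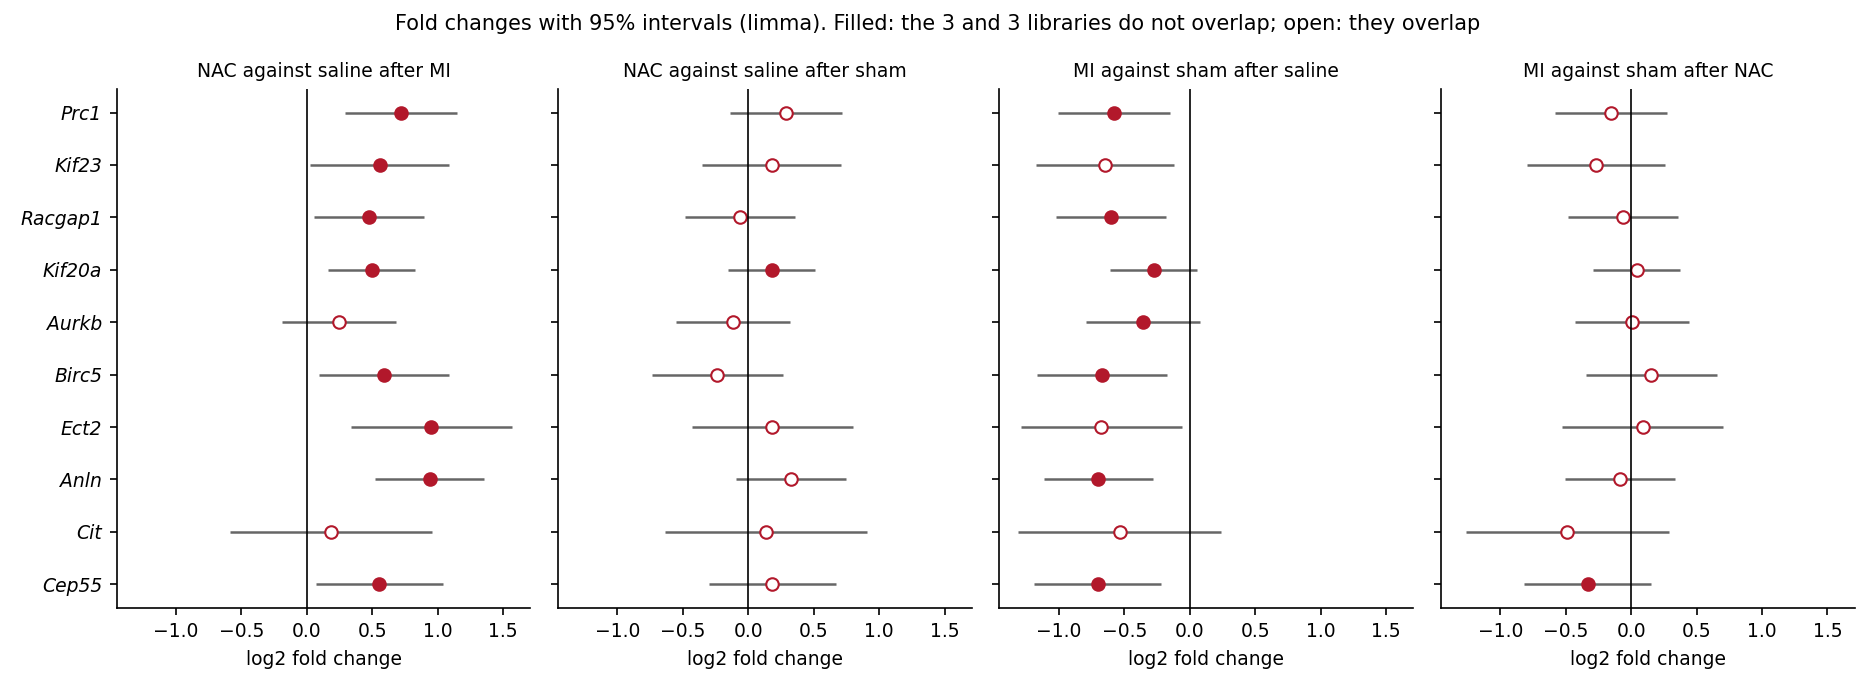
Log2 differences with 95% intervals from limma for the 10 genes, in 4 panels: NAC against saline after MI and after sham, then MI against sham after saline and after NAC. Filled points mark genes whose groups did not overlap. All points lie above 0 for NAC after MI and below 0 for MI after saline, while the other panels have points on both sides; no gene passed an adjusted p of 0.05 in any of them.

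Markers of other cells also differed between the MI groups, and their part in the result was not tested. All 9 red blood cell markers tested were lower in NAC MI, with a summed level of 266000 to 521800 normalised reads, against 877400 to 1383000 in saline MI. All 13 macrophage and monocyte markers were lower, with sums of 1089 to 12130 in NAC MI, against 9411 to 13820 in saline MI, and 11 of 12 endothelial markers were lower, with sums of 32700 to 65850 in NAC MI, against 55570 to 65360 in saline MI. None of these 3 lists had a marker at 0 in any library. All 3 lymphocyte markers tested were lower (median log2 difference -2.05, 2 at an unadjusted p under 0.05), with 4 of the list at 0 in at least 1 library. Epicardial markers lay on the side of the members, with 8 of 9 higher (median 0.67, 2 at an unadjusted p under 0.05) and sums of 5294 to 19620 in NAC MI, against 4933 to 5722 in saline MI. Limma called none of these markers. The 13 cardiomyocyte markers had a median log2 difference of 0.03, from -0.50 to 1.93. Of these, 8 were higher, 2 at an unadjusted p under 0.05, and 0 were called. At that unadjusted threshold, 579 of all 14996 genes were higher and 803 lower.

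MI against sham after saline used the same 3 saline MI libraries as the comparison above, so their low values enter both. All 10 genes were lower in saline MI than in saline sham, where 50.9% of all genes were, with a median log2 difference of -0.62 against -0.01 over all genes. Cep55 and Anln were -0.70 each (SE 0.225 and 0.193), Ect2 -0.68, Birc5 -0.67, Kif23 -0.65, Racgap1 -0.60, Prc1 -0.58, Cit -0.54, Aurkb -0.36 and Kif20a -0.28. The groups did not overlap for 7 genes (Anln, Racgap1, Kif20a, Prc1, Aurkb, Birc5 and Cep55), as for 8.15% of all genes in that direction.

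limma called 0 of the 10, while it called 129 of all genes (0.86%), of which 1 was lower (0.00667%). The smallest adjusted p of a member was 0.136, for Anln. Without adjustment 7 of the 10 had a p under 0.05, against 4.53% of all genes in that direction. With any 1 library of this comparison left out, the median ranged from -0.81 to -0.44. Saline sham 3 weighed on it: without this library, the median was -0.81. limma then called Anln (-0.93, adjusted p = 0.0283), where 0.153% of genes were called lower. With NAC sham 2 and NAC MI 2 left out as well, which changes only the shared estimate of spread, 7 of the 10 were called lower (5.31% of all genes). These were Anln, Ect2, Racgap1, Kif23, Prc1, Cit and Cep55. Saline sham 3 had the lowest mean log2 level of the members among the saline sham libraries (8.998). Leaving it out therefore widens the difference by itself, and these calls are no separate support. Library quality weights called 8 lower (9.35% of all genes). The weight was 0.268 for saline sham 3, against 1.83 and 0.562 for saline sham 1 and 2. Saline MI 1, 2 and 3 had weights of 4.70, 1.40 and 0.824. With saline sham 3 weighted down, the weighted calls are no separate support either. DESeq2 called Anln (adjusted p = 0.0192, with 0.415% of genes called lower) and edgeR called 0.

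Leukocyte markers were higher in the MI libraries of this comparison. All 13 macrophage and monocyte markers were higher in saline MI, with sums of 9411 to 13820 normalised reads against 845 to 1384 in saline sham, and all 9 neutrophil markers tested were higher, with sums over the 10 listed of 5139 to 6050 in saline MI against 158 to 829.5 in saline sham. The neutrophil markers Cxcr2 and Ly6g were at 0 in at least 1 library. Limma called 1 of the macrophage and 5 of the neutrophil markers. All 12 endothelial markers were lower, with sums of 55570 to 65360 in saline MI and 84790 to 94460 in saline sham, and none was called. Of the 9 epicardial markers, 8 were higher and 2 were called, with sums of 4933 to 5722 in saline MI, against 2872 to 3558 in saline sham. All 10 fibroblast markers were higher (median 0.63, 4 at an unadjusted p under 0.05, 0 called), and 7 of 8 mural markers were lower (median -0.44, 2 at an unadjusted p under 0.05, 0 called). The 13 cardiomyocyte markers had a median log2 difference of 0.07, from -0.57 to 1.29. Of these, 9 were higher, 1 at an unadjusted p under 0.05. At that threshold, 1030 of all 14996 genes were higher and 680 lower, and limma called 128 higher and 1 lower. The mitochondrial share of reads was 24.7 to 30.2% in saline MI, against 7.65 and 13.6% in saline sham 1 and 2 and 27.7% in saline sham 3, the saline sham library with the lowest mean level of the members. The part of these cells and of the mitochondrial share of reads in the members' values was not tested.

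MI against sham after NAC had a median closer to 0. After NAC, 6 of the 10 genes were lower and 4 higher in MI, where 50.2% of all genes were lower, with a median log2 difference of -0.07, which was 0.0046 without NAC sham 2. Cit was -0.49 (95% interval -1.26 to 0.29), Cep55 -0.33 (-0.82 to 0.15) and Kif23 -0.27 (-0.80 to 0.26), and Birc5 was 0.16 (-0.34 to 0.65). Anln was -0.08 (-0.50 to 0.33). Only in Cep55 did the groups not overlap, as in 9.96% of all genes in that direction. limma called 0 of the 10, with 0 at an unadjusted p under 0.05 (5.11% of all genes higher and 4.88% lower), while it called 19 of all genes (0.127%), and edgeR and DESeq2 called 0 of the 10.

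NAC against saline after sham gave 7 genes higher and 3 lower, where 48.2% of all genes were higher, with a median log2 difference of 0.18. Anln was 0.33 (95% interval -0.09 to 0.74), Prc1 0.29 (-0.14 to 0.72), and Birc5 -0.24 (-0.73 to 0.26). Kif20a, at 0.18 (-0.15 to 0.51), was the only member whose NAC sham libraries all exceeded the saline sham libraries, as 5.35% of all genes did. limma called 0 of the 10 and 0 of all genes (0%), with 0 of the 10 at an unadjusted p under 0.05 (3.53% of all genes higher and 2.36% lower), and edgeR and DESeq2 called 0 of the 10. The median depended on single libraries: it was 0.00 without NAC sham 2, -0.094 without saline sham 3 and -0.21 with both left out. Within the shared title prefix, NAC sham 2 was above the mean of saline sham 1 and 2 for 9 of the 10 genes (median 0.18). Markers of other cells differed between the sham groups too. All 9 red blood cell markers tested were lower with NAC (median -0.93), as were all 12 endothelial markers (-0.32). All 13 macrophage and monocyte markers (1.695) and all 9 neutrophil markers tested (0.64) were higher. The mean log2 macrophage and monocyte level was 9.80 in NAC sham 2, against 6.55 and 6.22 in NAC sham 1 and 3. The 13 cardiomyocyte markers had a median of -0.03, from -0.48 to 1.625. Of these, 6 were higher, 3 at an unadjusted p under 0.05. The part of all these markers in the members' values was not tested.

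The interaction, the difference between the NAC effect after MI and the NAC effect after sham, tested directly whether the NAC effects differed, and equally whether the effect of MI differed between NAC and saline. It was positive for all 10 genes, where 50.1% of all genes were positive, with a median of 0.40 on the log2 scale. The median was 0.62 without saline sham 3 and 0.86 with NAC sham 2 and NAC MI 2 left out as well. Saline sham 3 (8.998) and NAC MI 2 (9.24) had the lowest mean log2 level of the members in their groups, and NAC sham 2 (9.70) the highest. Leaving these libraries out therefore raises the interaction by itself, and the larger medians are no separate support. Birc5 had 0.83 (SE 0.326), Ect2 0.77 (SE 0.403), Anln 0.61 (SE 0.273), Racgap1 0.54 and Prc1 0.43, and Cit had 0.05. limma called 0 of the 10 and 0 of all genes (0%), every member with an adjusted p of 0.9999. Birc5 and Anln had an unadjusted p under 0.05, as 0.593% of all genes did in that direction, and edgeR and DESeq2 called 0 of the 10. A NAC effect that differed between injured and uninjured hearts was thus not shown for any of these genes.

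Averaged over both treatments, all 10 genes were lower in MI than in sham, where 50.3% of all genes were, with a median log2 difference of -0.35. Cep55 was -0.52 (SE 0.159, adjusted p = 0.101), Cit -0.51, Kif23 -0.46, Anln -0.39, Prc1 -0.37 and Racgap1 -0.33. limma called 0 of the 10 against 411 of all genes (2.74%), with 5 at an unadjusted p under 0.05 (9.83% of all genes in that direction), edgeR called 0 and DESeq2 called Cep55 (3.61% of genes called lower). Without saline sham 3, limma called 5 lower (Anln, Kif23, Prc1, Cit and Cep55), where 5.27% of all genes were. This library had the lowest values of these 5 genes among the saline sham libraries, so leaving it out widens the difference by itself. Library quality weights called the same 5 (13.5% of all genes). The weights were 0.268 for saline sham 3 and 0.250 for NAC sham 2, so the weighted calls are no separate support. Anln, Kif23, Cit and Cep55 were called with saline sham 3, NAC sham 2 and NAC MI 2 left out together (6.23%). Averaged over both operations, all 10 were higher after NAC than after saline, where 47.6% of all genes were, with a median of 0.35, which was 0.20 with the 3 libraries left out. Anln was 0.63 (SE 0.137, adjusted p = 0.172), Ect2 0.57, Prc1 0.50 and Kif20a 0.34. The 6 NAC libraries of Kif20a lay above its 6 saline libraries, as in 0.447% of all genes. limma called 0 of the 10 and 0 of all genes (0%), with 5 at an unadjusted p under 0.05 (7.62% of all genes), edgeR called 0, and DESeq2 called Anln, Kif20a and Prc1 (1.82% of genes called higher). Library quality weights called Anln, Ect2, Kif20a and Prc1 (6.98%). These averages use the same libraries as the comparisons above.

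The genes varied together over the libraries. Over the 45 pairs, Pearson's r of log2 values across the 12 libraries had a median of 0.73, from 0.22 for Cit and Birc5 to 0.94 for Anln and Prc1. With the group means taken out, the median was 0.56, from -0.22 for Ect2 and Birc5 to 0.92 for Kif23 and Prc1. Prc1 had the highest mean r with the other 9 genes, 0.81, and Cit and Birc5 the lowest, 0.56 each. With the group means taken out, Kif20a had the lowest mean r, 0.18. These correlations are descriptions, since the points share 1 size factor per library and the groups.

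Of 11478 other genes with a mean of at least 50 normalised reads, the 10 whose log2 values were most like the mean z-score of the members over the 12 libraries were Cstf2 (Pearson's r = 0.95), Bub1 (0.95), Parpbp, Spag5, Taf2, Ncapg, Arhgap29, Fanci, Kif4 and Alg13, with r of 0.93 or more. Bub1 is a spindle checkpoint kinase, Ncapg a condensin subunit and Kif4 a chromosome-bound kinesin that binds Prc1, and these 3 of the 10 stood in the lists of related genes. Cstf2 is a subunit of the mRNA cleavage stimulation factor.

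The partners of the central spindle ran close to the members. After MI all 12 were higher with NAC, with a median log2 difference of 0.55, and after saline all 12 were lower in MI than in sham, with a median of -0.42. Ckap2, a microtubule-associated protein, averaged 546.9 ± 45.7 normalised reads in NAC MI, against 303.5 ± 18.6 in saline MI (SD, n = 3 each), a difference of 0.85. Kif20b, a kinesin of the midzone, averaged 305.3 ± 9.15 in NAC MI, against 157.2 ± 75.8 in saline MI (1.05), Gas2l3, a linker of actin and microtubules, was 0.83 higher and Kif4 0.80 higher. Kif14, a kinesin that binds Prc1 and citron kinase, was 0.62 higher, with groups that did not overlap. The other subunits of the chromosomal passenger complex had smaller differences: Cdca8 (borealin) was 0.31 higher and Incenp 0.13 higher, and the mitotic kinase Plk1 was 0.29 higher. limma and edgeR called 0 of the 12 in either comparison. For NAC after MI, 6 were higher at an unadjusted p under 0.05 in limma, against 3.86% of all genes. For MI after saline, 4 were lower at that threshold, against 4.53%. DESeq2 called 1 higher with NAC after MI (0.053% of all genes) and 2 lower in MI after saline (0.415%).

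Genes of mitosis outside cytokinesis lay on the same sides. Of 36, 35 were higher in NAC MI than in saline MI (median 0.66) and 36 were lower in saline MI than in saline sham (median -0.57). Hmmr, a spindle-associated protein, averaged 690.3 ± 161 normalised reads in NAC MI, against 275.9 ± 52.9 in saline MI (SD, n = 3 each), a difference of 1.31. Bub1 differed by 1.14, the proliferation marker Mki67 by 1.001, Ccnb1 (cyclin B1) by 0.80, Top2a (topoisomerase II alpha) by 0.76, Dlgap5 by 0.69 and Cdk1 by 0.31. limma and edgeR called 0 of the 36 in either comparison. For NAC after MI, 22 were higher at an unadjusted p under 0.05 in limma, against 3.86% of all genes. For MI after saline, 21 were lower at that threshold, against 4.53%. DESeq2 called 1 higher with NAC after MI (0.053% of all genes) and 2 lower in MI after saline (0.415%). The mean log2 level of the 10 members minus that of these 36 genes was -0.05 ± 0.083 in NAC MI, -0.01 ± 0.083 in saline MI, -0.02 ± 0.096 in NAC sham and -0.01 ± 0.035 in saline sham libraries (SD, n = 3 each). Relative to the other genes of mitosis, the members thus had nearly the same level in all groups.

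Genes of S phase, when DNA is copied, had medians closer to 0. Of 24 tested, 17 were higher with NAC after MI (median 0.13) and 22 were lower in MI after saline (median -0.27). limma and edgeR called 0. At an unadjusted p under 0.05 in limma, 3 were higher for NAC after MI, against 3.86% of all genes. For MI after saline, 8 were lower at that threshold, against 4.53%. DESeq2 called 1 lower in MI after saline (0.415% of all genes). Orc1, of the origin recognition complex, was 0.76 higher with NAC after MI and -0.89 in MI against sham after saline, Prim1, a primase subunit, was 0.55 and -0.46, Rrm1, a subunit of ribonucleotide reductase, 0.38 and -0.34, and its partner Rrm2 0.20 and -0.45. Cdc6, a replication licensing factor, was 0.30 and -0.62. The mean log2 level of the members minus that of the S phase genes was 0.15 ± 0.050 in NAC MI, -0.27 ± 0.095 in saline MI, 0.10 ± 0.21 in NAC sham and -0.01 ± 0.20 in saline sham libraries (SD, n = 3 each). The 3 saline MI libraries had -0.36, -0.29 and -0.17, and saline sham 3 had -0.22.

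**Figure D4:**
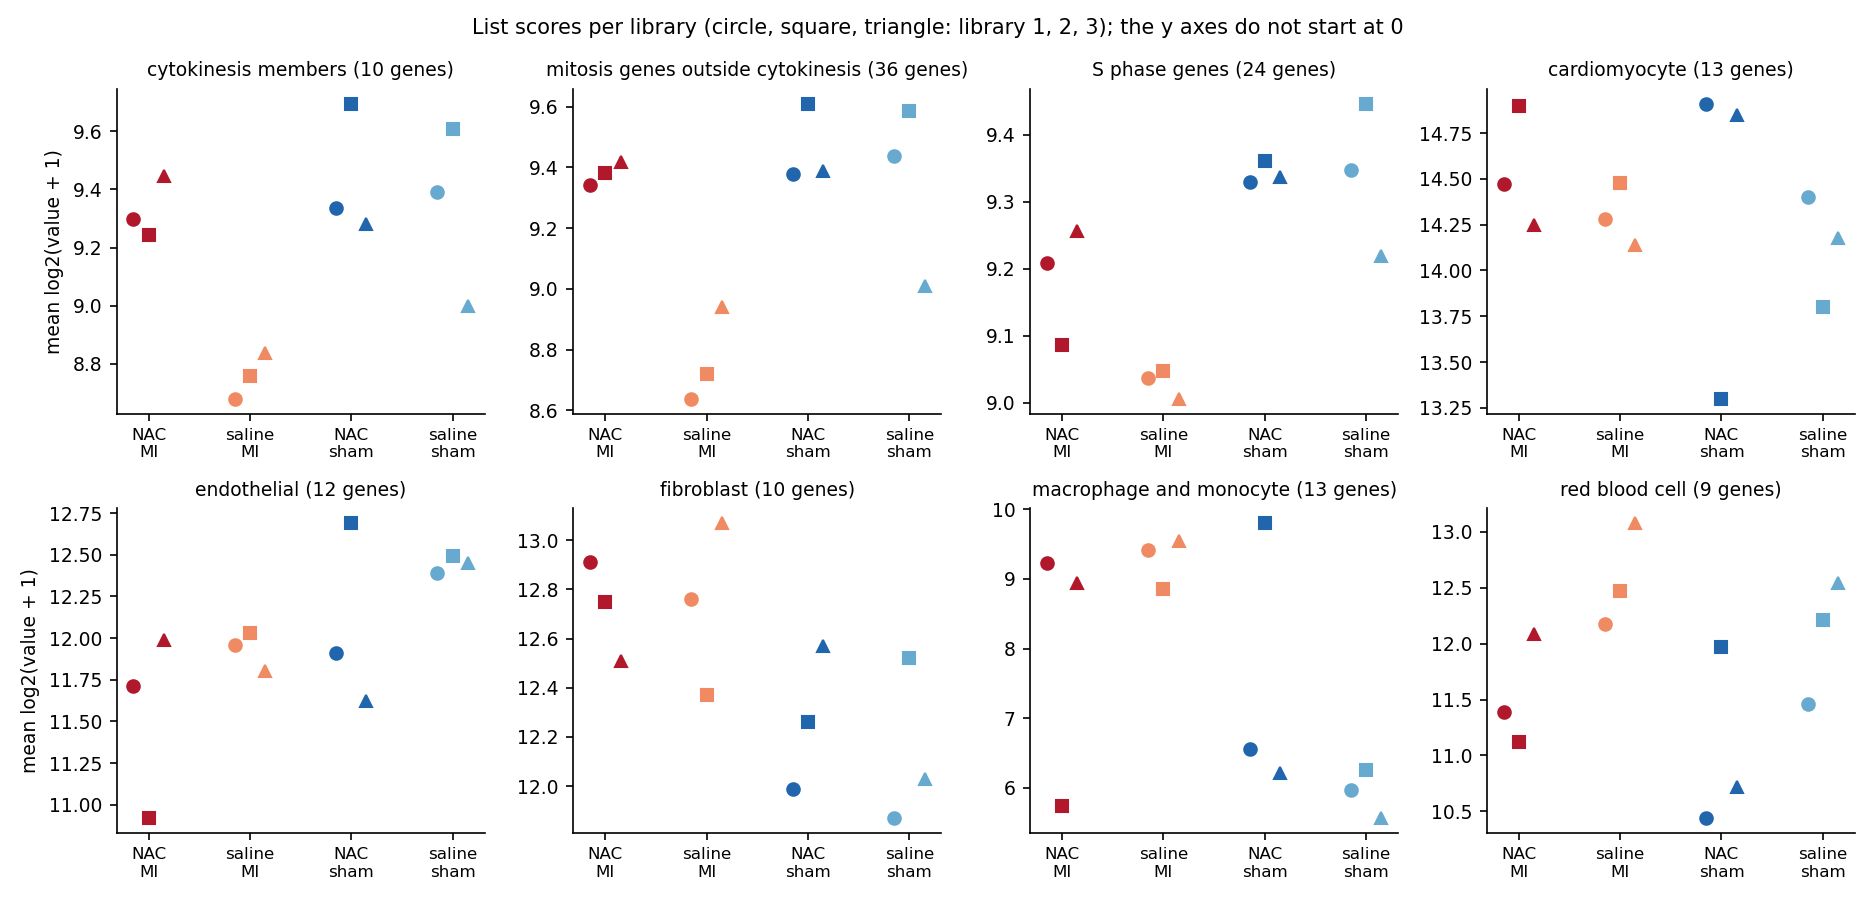
Mean log2(value + 1) per library over the 10 members, 36 other genes of mitosis, 24 genes of S phase and 5 lists of cell type markers, with 1 point per library (circle, square and triangle for libraries 1, 2 and 3); the vertical axes differ and do not start at 0. The members run from 8.68 to 9.70 and the genes of mitosis from 8.64 to 9.61, and the genes of S phase from 9.01 to 9.45, all lowest in the 3 saline MI libraries.

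Genes of the contractile ring, which most cells also use for adhesion and contraction, showed no common direction. Of 19 tested, 7 were higher and 12 lower with NAC after MI (median -0.01), and 11 were higher and 8 lower in MI after saline (median 0.09). The formin Diaph3 was 0.65 higher with NAC after MI, with 532.9 ± 4.84 normalised reads in NAC MI, against 339.3 ± 34.9 in saline MI (SD, n = 3 each). Sept9, a septin, was -0.59 and Pfn1 (profilin) -0.49 in the same comparison, and Iqgap3 was -0.85 in MI against sham after saline. The 22 genes of abscission and ESCRT-III, the membrane-cutting machinery that Cep55 recruits, had medians of -0.10 with NAC after MI and -0.04 in MI after saline. Chmp4b, an ESCRT-III subunit, was -0.34 with NAC after MI and 0.55 in MI against sham after saline, Chmp2b was -0.36 and -0.05, and Ulk3, a kinase of the abscission checkpoint, was -0.34 and 0.64. limma, edgeR and DESeq2 called 0 of either list in both comparisons; 3 of the 19 and 1 of the 22 had an unadjusted p under 0.05 with NAC after MI, and 1 and 2 in MI after saline.

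Regulators of late cell cycle genes had a median of 0.00 with NAC after MI, with 11 of 21 higher, and of -0.13 in MI after saline, with 15 of 21 lower. Foxm1, a transcription factor of genes of the late cell cycle, averaged 669 ± 55.6 normalised reads in NAC MI, against 553.7 ± 22.8 in saline MI (SD, n = 3 each), and was 0.27 higher with NAC after MI and -0.56 in MI after saline. Mybl2, a further activator, was -0.31 and -0.40, Lin9, of the complex that binds such promoters, 0.36 and -0.40, and the repressors E2f7 and E2f8 were 0.49 and 0.47 with NAC after MI and -1.13 and -0.55 in MI after saline. limma, edgeR and DESeq2 called 0 in both comparisons, with 0 at an unadjusted p under 0.05 in limma for NAC after MI. For MI after saline, 3 were lower at that threshold, against 4.53% of all genes. With library quality weights, limma called 5 of 12 central spindle partners, 19 of 36 genes of mitosis, 1 of 24 of S phase and 3 of 19 of the ring higher with NAC after MI, against 2.75% of all genes. With the same weights it called 7 partners, 24 genes of mitosis, 9 of S phase, 3 of the ring and 4 regulators lower in MI after saline, against 9.35% of all genes, and 2 of the ring and 2 of abscission higher, a share near the 10.1% of all genes called higher. With saline sham 3, NAC sham 2 and NAC MI 2 left out, 6 partners, 17 genes of mitosis, 2 of S phase, 3 of the ring and 3 regulators were called lower in MI after saline (5.31% of all genes), and 1 of abscission higher (6.74%). None of the 6 lists had a gene called for NAC after MI in that setting, where 0% of all genes were called higher.

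**Figure D5:**
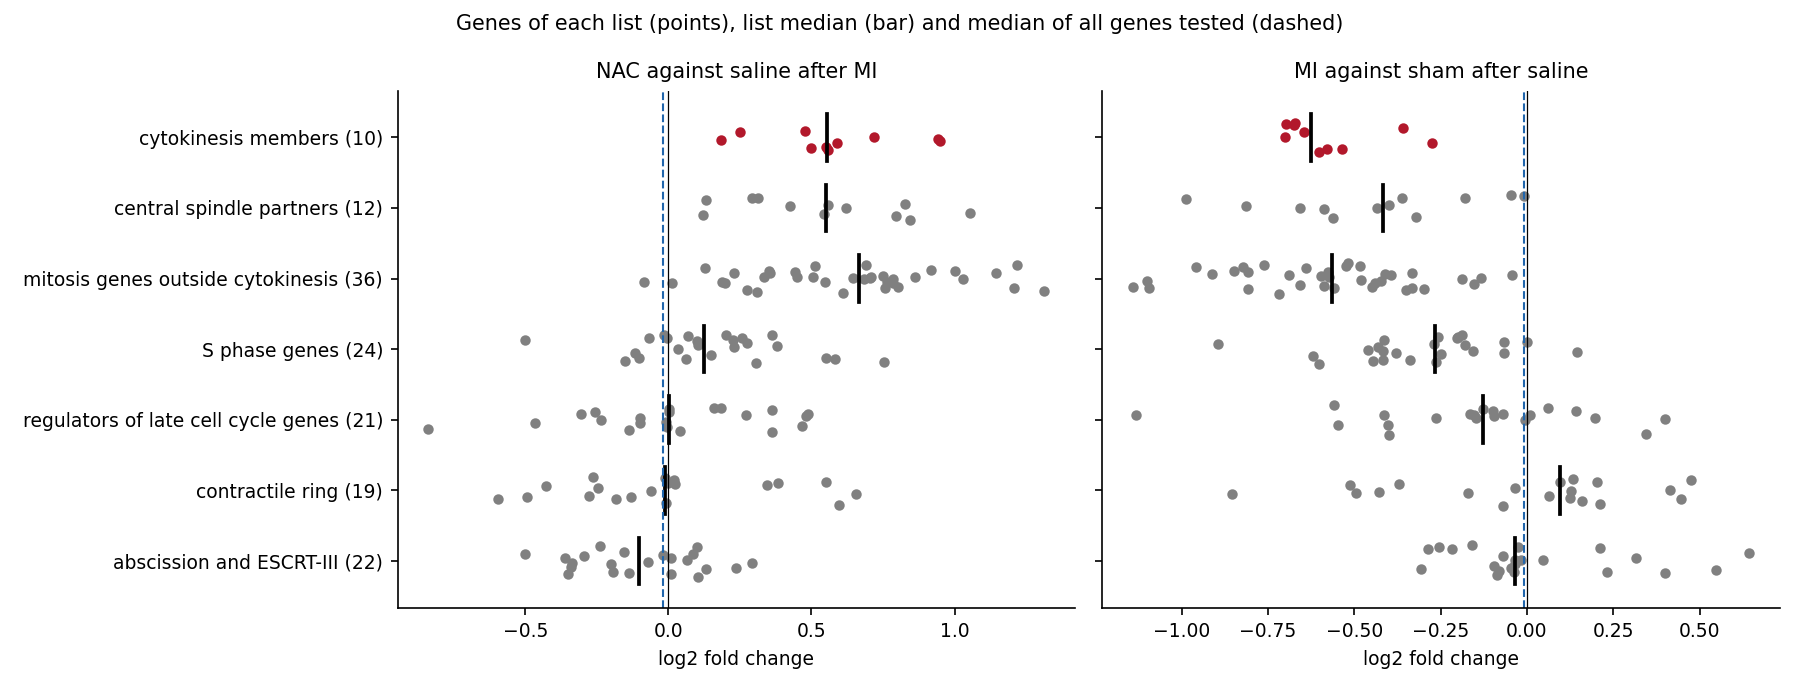
Log2 differences of single genes (points), list medians (bars) and the median of all genes tested (dashed line) in the list of members and the lists of related genes, for NAC against saline after MI and MI against sham after saline. Members, central spindle partners and other genes of mitosis have medians above 0 in the first (0.55, 0.55 and 0.66) and below 0 in the second (-0.62, -0.42 and -0.57), while ring and abscission genes have medians between -0.10 and 0.09.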

How the data were processed

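Poly(A)-selected RNA of 12 libraries (4 groups of 3) was measured. The deposited values are a signal that the authors made by dividing the read count of each gene by 1 size factor per library: multiplying back gave whole reads for 100% of values (within 0.01), and the factors equal recomputed median-of-ratios factors in 12 of 12 libraries. STAR 2.7.10a, DESeq2 1.44.0 and mm10 are named per the submitters' processing notes; the gene counter, annotation and strand setting are not given in the sources used here. Exon lengths came from GENCODE on GRCm38, and promoters from RefSeq.

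Values were analysed as log2(value + 1) with limma 3.58.1 in R 4.3.3 (trended variance, two-sided), in 1 linear model with a mean for each of 4 groups, fitted to the 12 libraries, for 14996 genes with a mean of at least 10, with Benjamini-Hochberg adjustment over all of them and a threshold of 0.05; the procedure was tested on simulated data. Alternatives were other pseudocounts and filters, TMM scaling, edgeR 4.0.16 (quasi-likelihood) and DESeq2 1.42.0 on the recovered reads, library quality weights, only the libraries of a comparison, title prefix as a term, and libraries left out. The members and lists were chosen with earlier results of these data known. The genes named are the 10 members, 11 fixed cell cycle genes and, from each list, up to 4 with the smallest p in NAC against saline after MI and in MI against sham after saline, of which some are given only by their list's count. Of 240 listed symbols, 236 matched 1 measured gene. Marker levels are means of log2 values or sums of normalised reads over a list. Values with ± are SDs over 3 libraries.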

Additional observations from a re-analysis of the deposited data

How the results depend on the processing

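With 3 libraries a group, single libraries moved medians and calls, and the shallowest member value rests on 182 reads. No paired analysis was possible because the titles give no replicate numbers shared across groups. Title prefixes hold both treatments in the MI groups, and NAC against saline after MI fitted with the prefix as a term gave 0 genes and 0 members called and a member median of 0.56. No member was called at the main settings; over 1280 values of single members under alternatives, 46 passed the threshold with the same sign, and 41 had the other sign without passing it. TMM scaling moved the median of all genes by under 0.02.

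Members called, 0 in each comparison, became 1 with DESeq2 in MI against sham after saline, NAC against saline after MI and MI against sham averaged, and 3 in NAC against saline averaged. With library quality weights they were 8, 6 and 5 in the first 3 of these (9.35, 2.75 and 13.5% of all genes in that direction) and 4 in the last (6.98%), and with saline sham 3, NAC sham 2 and NAC MI 2 left out 7 in MI against sham after saline (5.31%) and 4 in MI against sham averaged (6.23%). The member median moved in NAC against saline after sham to -0.093 with weights and -0.21 without the 3 libraries, and in the interaction to 0.66 and 0.86; in NAC against saline averaged it was 0.24 and 0.20, against 0.35.

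Genes called in MI against sham after saline were 464 with DESeq2, 2915 with weights, 507 with only that comparison's libraries and 1807 without the 3 libraries, against 129. In MI against sham after NAC they were 43 with a pseudocount of 4, 10 with a mean of at least 50, 241 with DESeq2, 806 with weights, 1 with only its own libraries and 575 without the 3, against 19. In NAC against saline after sham they were 47 with DESeq2, 421 with weights and 418 without the 3. In NAC against saline after MI they were 10 with DESeq2 and 685 with weights, and in the interaction 1 with DESeq2 and 6 without the 3. Averaged over treatments, MI against sham gave 1218, 4187 and 2183 genes with DESeq2, weights and without the 3, against 411, and NAC against saline averaged gave 432, 2021 and 328. 
With single libraries left out, members called ranged from 0 to 1 in MI against sham after saline and 0 to 5 in MI against sham averaged, the highest in both without saline sham 3. Member medians ranged from -0.0935 to 0.2873 in NAC against saline after sham and from 0.3089 to 0.6159 in the interaction. Genes called ranged from 15 to 105 in MI against sham after saline, 8 to 67 in MI against sham after NAC, 0 to 80 in NAC against saline after sham, 0 to 4 in NAC against saline after MI, 0 to 4 in the interaction, 133 to 1563 in MI against sham averaged and 0 to 250 in NAC against saline averaged. The lowest counts of MI against sham, 15 and 133, came without saline MI 1, and 1563 without saline sham 3; 67, 80 and 250 came without NAC sham 2. The cause of these changes was not tested.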
